A study of Sus scrofa with 18 samples.

Results

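Radial glia are the stem cells that line the ventricles of the fetal brain, and 8 genes that mark them were followed here through pig gestation: NES, VIM, FABP7, PROM1, HOPX, FAM107A, MOXD1 and LIFR. Members were taken from the table of read counts by gene name, and 6 of the 8 names were among its 31908 genes. The names HOPX and FAM107A were not in the table. An unnamed gene lies over each of these 2 positions on the same strand, and both are described apart, as the HOPX locus and the FAM107A locus, a choice made after the table was seen.

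The libraries came from whole brains of domestic pig fetuses, from Landrace x Large White gilts bred to LR-M6 boars. Brains were taken at gestation day (GD) 45, 60 or 90, with 3 female and 3 male fetuses at each day and no treatment, so 18 libraries fall into 6 groups. The labels do not name the sows. Equal litter sizes on the same day put the fetuses in 9 pairs of 1 female and 1 male, which were taken as littermates by inference. Each library held 15118843 to 19729783 counts on genes. Libraries are named by sex, day and piglet number, as in male GD45 replicate 17. In bulk RNA of a whole brain, fewer cells of a type and less RNA per cell cannot be told apart.

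Radial glia divide at the ventricle, give rise to intermediate progenitors and neurons, and later turn to astrocytes and oligodendrocyte precursors. Nestin (NES) and vimentin (VIM) are intermediate filament proteins, FABP7 binds fatty acids along the radial fibre, and PROM1 sits on membrane protrusions of the apical surface. HOPX, FAM107A, MOXD1 and LIFR are known from outer radial glia, which have left the ventricular surface and are abundant in large folded brains. Several of these genes are not confined to progenitors: VIM is also made by vessel and meningeal cells, PROM1 by ependymal cells and oligodendrocytes, and HOPX and FAM107A by astrocytes.

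In these brains the filament genes NES and VIM fell at each step, while PROM1 and the HOPX and FAM107A loci rose, mostly between GD60 and GD90. MOXD1 was lowest at GD60, FABP7 moved little, and LIFR varied more between libraries of a day than any other member. Levels are given as CPM, the share of a library's gene counts scaled to 1000000. Differences are log2 fold changes from edgeR's quasi-likelihood test on all 18 libraries, with Benjamini-Hochberg adjusted p over the 16325 genes tested and a threshold of 0.05. All 6 named members and both loci passed the filter on low counts.

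**Figure D1:**
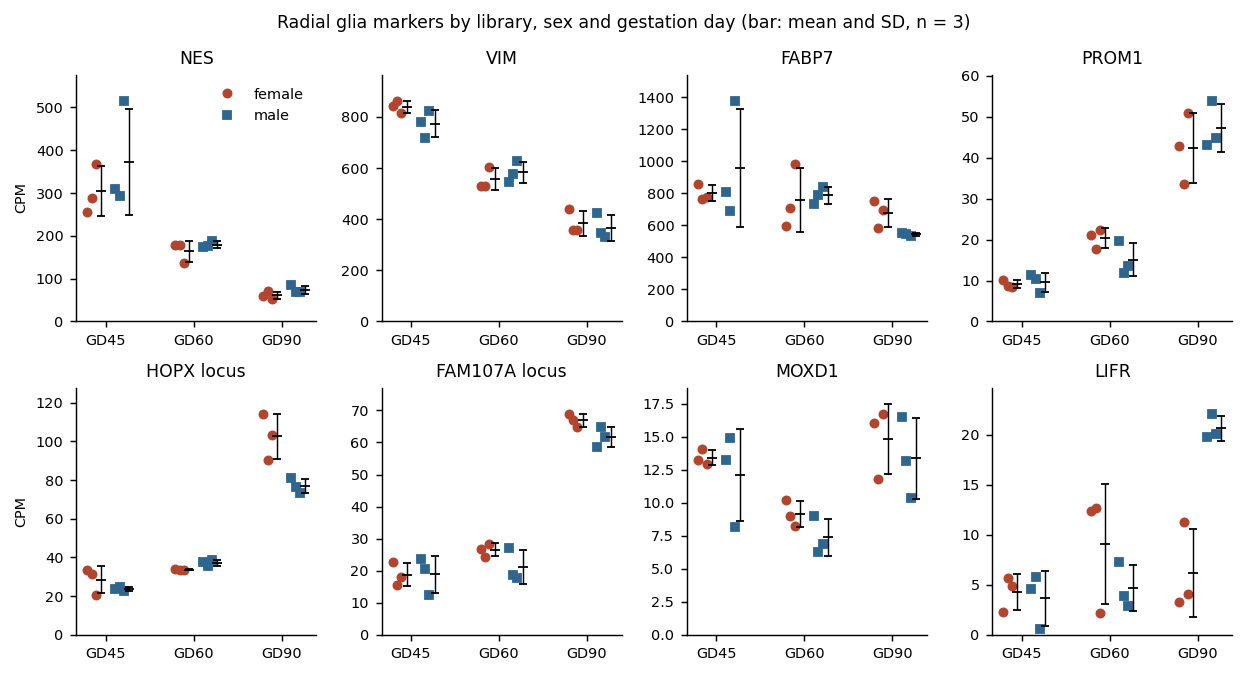
CPM (vertical axis, from 0, with its own scale in each panel) of the 6 members found by name and the 2 loci in each library, by gestation day. Circles are females and squares males, and black bars give the mean and SD of 3 libraries. NES falls from 256 to 515 CPM at GD45 to 53.0 to 84.6 at GD90 and PROM1 rises, whereas LIFR spans 3.29 to 22.03 CPM within GD90.

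The order of the levels was read per length, as FPKM from the length in the deposited table. At GD45 the medians were 288 FPKM for VIM, 207 for FABP7, 52.8 for NES, 5.25 for the HOPX locus, 4.08 for the FAM107A locus, 2.54 for MOXD1, 1.97 for PROM1 and 0.384 for LIFR. VIM and FABP7 overlapped at every day, and both lay above NES in all libraries of each day. At GD90 the order below them had changed. The HOPX locus (18.6 FPKM) lay above the FAM107A locus (13.7) without overlap, the FAM107A locus overlapped NES (12.1), and NES overlapped PROM1 (9.14). MOXD1 (2.80) and LIFR (1.26) came last, each without overlap with the gene above it. NES therefore went from the third place to the fifth, and stood below both outer radial glia loci in median.

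Upstream sequence is shown for the 4 genes whose start in the deposited table lay within 200 bases of the start in the RefSeq annotation, since for the other 4 the start was uncertain or could not be checked. Each window runs from 250 bases before to 50 bases after that start, on Sscrofa11.1, 5′ to 3′ on the gene's strand. Capitals mark matches on either strand to TGGGAA (the RBPJ core, RBPJ being the DNA-binding partner of Notch), TTCNNNGAA (STAT), TTGGCA (an NFI site core), ATTGTT (SOX), ATGCAAAT (the POU octamer), CCAAT and GGGCGG (the GC box). The windows differed in their matches, and no relation of the matches to the levels was tested.
NES, chr4:93412307-93412606, plus strand: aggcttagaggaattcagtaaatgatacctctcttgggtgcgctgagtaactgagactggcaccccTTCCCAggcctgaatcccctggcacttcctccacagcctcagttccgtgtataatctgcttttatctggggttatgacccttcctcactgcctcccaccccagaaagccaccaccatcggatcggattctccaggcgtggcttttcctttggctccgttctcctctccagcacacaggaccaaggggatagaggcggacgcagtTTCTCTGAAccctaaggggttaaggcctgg
FABP7, chr1:39876338-39876637, minus strand: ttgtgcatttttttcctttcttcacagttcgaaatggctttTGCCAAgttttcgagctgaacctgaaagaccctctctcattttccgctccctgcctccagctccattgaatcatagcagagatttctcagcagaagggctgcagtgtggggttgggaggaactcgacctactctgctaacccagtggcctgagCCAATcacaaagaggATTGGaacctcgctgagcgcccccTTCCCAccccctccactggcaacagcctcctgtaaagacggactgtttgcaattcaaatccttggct
HOPX locus, chr8:55901584-55901883, minus strand: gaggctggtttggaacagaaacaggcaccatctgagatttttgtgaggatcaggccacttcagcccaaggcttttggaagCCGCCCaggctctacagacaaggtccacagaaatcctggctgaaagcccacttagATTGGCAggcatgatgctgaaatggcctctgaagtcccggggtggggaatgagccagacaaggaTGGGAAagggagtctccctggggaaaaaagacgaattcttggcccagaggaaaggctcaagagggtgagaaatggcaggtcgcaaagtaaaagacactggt
MOXD1, chr1:31282256-31282555, plus strand: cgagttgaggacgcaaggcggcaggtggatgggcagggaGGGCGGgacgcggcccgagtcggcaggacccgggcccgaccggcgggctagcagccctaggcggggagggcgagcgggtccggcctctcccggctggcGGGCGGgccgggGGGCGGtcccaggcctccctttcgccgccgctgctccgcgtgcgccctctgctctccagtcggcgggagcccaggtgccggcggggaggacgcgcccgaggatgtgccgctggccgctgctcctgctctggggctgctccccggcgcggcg
TGGGAA was matched once in each of the NES, FABP7 and HOPX windows, and 27.9% of all 30438 windows of this length hold it. FABP7 alone of the 4 held 2 CCAAT boxes (36.1% of windows hold at least 1), and MOXD1 alone held 3 GC boxes (37.0%) in a window of 79.3% GC, against 53.3% for the median window. The STAT match of NES is found in 7.97% of windows, and NFI site cores, matched in FABP7 and HOPX, in 13.1%. In the HOPX window the NFI site core overlaps the CCAAT match. SOX letters (11.5% of windows) and the POU octamer (1.79%) were not matched in these 4. Such matches describe letters and not binding.

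NES was the member that fell most. Its gene, ENSSSCG00000006474 (chr4:93412557-93421895, plus strand), had 256 CPM in the lowest, 301 in the median and 515 in the highest GD45 library. At GD60 these values were 136, 177 and 189 CPM, and at GD90 they were 53.0, 69.0 and 84.6 CPM. No library of a later day reached the lowest of an earlier day. NES fell by 0.998 on the log2 scale from GD45 to GD60 (SE 0.163, adjusted p = 0.000434) and by 1.31 from GD60 to GD90 (SE 0.165, adjusted p = 8.28e-06). Over the whole interval the level at GD90 was 4.97-fold lower than at GD45. The share of all tested genes called lower was 7.37% for GD60 against GD45, 20.9% for GD90 against GD60 and 29.3% for GD90 against GD45. NES was highest at GD45 in the fetuses with a litter size of 8, at 515 CPM in male replicate 17 and 369 CPM in female replicate 18. The labels give these brains 0.7135 and 0.6653 in the unit they call mg, against 1.55 to 1.86 for the other GD45 brains. Male replicate 17 also had the lowest first-exon coverage of NES and the highest GC slope of the 18 libraries, both given below. NES has 60.8% GC in its exons. With single libraries left out, its log2 fold change for GD60 against GD45 ran from -1.1 to -0.79. The parts of brain weight, coverage and GC in the NES level of these libraries were not tested.

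Most reads of NES fell on 1 exon, which let the fall be seen within the gene. The last exon (chr4:93417450-93421895) held 53863 of its 56996 exon counts and went from a mean of 321 CPM at GD45 to 157 at GD60 and 60.9 at GD90. The first exon (chr4:93412557-93413594), with 2734 counts, went from 12.4 to 10.3 and 5.11 CPM. Its log2 ratio of means from GD45 to GD60 was -0.27, against -1.03 for the last exon. From GD60 to GD90 the first and last exons fell by more similar amounts, with log2 ratios of means of -1.01 and -1.37.

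VIM fell at the same steps, by less. VIM (ENSSSCG00000011033, chr10:43517307-43526172, plus strand) had 719, 819 and 862 CPM in the lowest, median and highest library at GD45, 530.5, 561 and 628 CPM at GD60, and 329, 356 and 441 CPM at GD90. The 3 days did not overlap. The log2 fold change was -0.51 for GD60 against GD45 (SE 0.109, adjusted p = 0.00386) and -0.57 for GD90 against GD60 (SE 0.109, adjusted p = 0.000473). VIM was the steadiest named member within a day, with a coefficient of variation of 6.36% at GD45, 7.12% at GD60 and 12.2% at GD90. All 5 of its exons with at least 180 counts had a lower mean CPM at GD90 than at GD60. Markers of pericytes and meninges, cells that make VIM as well, had a summed level of 836 to 1770 CPM at GD45, 1140 to 1520 CPM at GD60 and 1310 to 1710 CPM at GD90.

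FABP7 stayed among the most abundant members at every day. FABP7 (ENSSSCG00000004234, chr1:39871145-39876387, minus strand) had 689, 792 and 1376 CPM in the lowest, median and highest GD45 library, 593, 761 and 982 CPM at GD60, and 535, 568 and 750 CPM at GD90. Consecutive days overlapped. Its log2 fold change was -0.20 for GD60 against GD45 (SE 0.186, adjusted p = 0.515) and -0.33 for GD90 against GD60 (SE 0.187, adjusted p = 0.174). GD90 against GD45 passed the threshold at -0.52 (SE 0.187, adjusted p = 0.0238). Without male GD45 replicate 17 it was -0.28 (adjusted p = 0.0576), and without female GD90 replicate 7 it was -0.47 (adjusted p = 0.0584). Its last exon (chr1:39871145-39872565), with 79495 counts, had means of 324, 261 and 207.5 CPM at the 3 days.

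PROM1 rose the most of the members found by name. PROM1 (ENSSSCG00000008745, chr8:11215659-11317312, minus strand) had 6.99, 9.45 and 11.3 CPM in the lowest, median and highest GD45 library, 11.9, 18.7 and 22.4 CPM at GD60, and 33.6, 43.9 and 53.8 CPM at GD90. No 2 days overlapped. The log2 fold change was 0.91 for GD60 against GD45 (SE 0.138, adjusted p = 0.000248) and 1.38 for GD90 against GD60 (SE 0.136, adjusted p = 5.55e-07). In all, PROM1 was 4.90-fold higher at GD90 than at GD45. The share of all tested genes called higher was 9.35%, 21.4% and, for GD90 against GD45, 28.3%. The last exon (chr8:11215659-11217461), with 2646 counts, had means of 2.42, 7.05 and 17.3 CPM. Ependymal and choroid plexus markers had a summed level of 711 to 1170 CPM at GD60 and 437 to 948 CPM at GD90, and the ciliary regulator FOXJ1 had a log2 fold change of -0.31 (adjusted p = 0.0785). Oligodendrocyte genes moved with PROM1: from GD60 to GD90 MAG and MOG had log2 fold changes of 6.32 and 5.83 (adjusted p = 3.79e-11 and 7.13e-10). All 5 oligodendrocyte precursor markers rose too, with a summed level of 258 to 307 CPM at GD60 and 480 to 621 CPM at GD90. The part of these cells in the rise of PROM1 was not tested.

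The HOPX locus and the FAM107A locus rose together late. HOPX encodes a small homeodomain protein that does not bind DNA, and FAM107A an actin-associated protein. The gene over HOPX (ENSSSCG00000008898, chr8:55862191-55901633, minus strand) has the start and end of RefSeq HOPX to within 5 bases. It had 20.4, 24.1 and 33.7 CPM in the lowest, median and highest GD45 library, then 33.5, 34.8 and 38.6 CPM at GD60 and 73.5, 85.6 and 114 CPM at GD90. GD90 lay above both earlier days without overlap, while GD45 and GD60 overlapped. The log2 fold change was 0.44 for GD60 against GD45 (SE 0.116, adjusted p = 0.0147) and 1.36 for GD90 against GD60 (SE 0.117, adjusted p = 1.36e-07). Only 1.74% of the locus's gene counts were assigned to exons in the exon table, so its exons could not be described.

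The gene over FAM107A (ENSSSCG00000033189, chr13:40276896-40421972, minus strand) runs on upstream of the RefSeq gene, which ends at position 40369708. Of its 2003 counts in the exon table, 1994 fell on the 10 exons within the RefSeq interval, but the exon table holds only 18.9% of the counts of the whole gene. The gene had 12.5, 19.2 and 23.7 CPM in the lowest, median and highest GD45 library, 17.6, 25.5 and 28.4 CPM at GD60, and 58.7, 64.8 and 68.8 CPM at GD90. The GD90 libraries were the most alike, with a coefficient of variation of 5.73%. The log2 fold change was 0.34 for GD60 against GD45, which did not pass (SE 0.126, adjusted p = 0.0768), and 1.48 for GD90 against GD60 (SE 0.126, adjusted p = 1.28e-07). The 3 exons with at least 180 counts all had a higher mean CPM at GD90 than at GD60, with log2 ratios of means of 1.92, 1.53 and 1.16 from 5′ to 3′.

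MOXD1 was the member that turned. MOXD1 encodes a monooxygenase related to dopamine beta-hydroxylase. The gene (ENSSSCG00000004191, chr1:31282506-31369408, plus strand) had 8.17, 13.3 and 14.9 CPM in the lowest, median and highest GD45 library, 6.29, 8.62 and 10.2 CPM at GD60, and 10.4, 14.6 and 16.7 CPM at GD90. GD90 lay above GD60 without overlap, whereas GD45 and GD60 overlapped through 1 GD45 library, male replicate 17. The level fell by 0.63 on the log2 scale from GD45 to GD60 (SE 0.141, adjusted p = 0.00528) and rose by 0.82 from GD60 to GD90 (SE 0.142, adjusted p = 0.000204). For GD90 against GD45 the log2 fold change was 0.19 (SE 0.139, adjusted p = 0.268). Both calls kept their direction and passed the threshold in all 18 fits that left out 1 library. The last exon (chr1:31365941-31369408), with 2238 of the gene's 3509 counts on it, had means of 8.68, 4.94 and 8.71 CPM.

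LIFR, the signalling chain of the receptor for leukaemia inhibitory factor, was the least abundant and the least even member. LIFR (ENSSSCG00000016850, chr16:23631195-24042240, minus strand) overlaps OSMR at its 5′ end, and the counting is not stated to use strand, so reads there are uncertain. At GD45 the females had 2.24, 5.63 and 4.87 CPM and the males 4.62, 5.74 and 0.527 CPM. At GD60 the females had 12.4, 12.7 and 2.18 CPM and the males 7.28, 3.86 and 2.90 CPM. At GD90 the females had 3.29, 11.3 and 4.08 CPM and the males 19.8, 22.03 and 20.04 CPM. The 3 days overlapped, and the highest GD45 library had 10.9 times the CPM of the lowest, which held 8 counts. Over both sexes the log2 fold change was 0.73 for GD60 against GD45 (SE 0.456, adjusted p = 0.302), 0.85 for GD90 against GD60 (SE 0.443, adjusted p = 0.135) and 1.58 for GD90 against GD45 (SE 0.456, adjusted p = 0.00709).

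**Figure D2:**
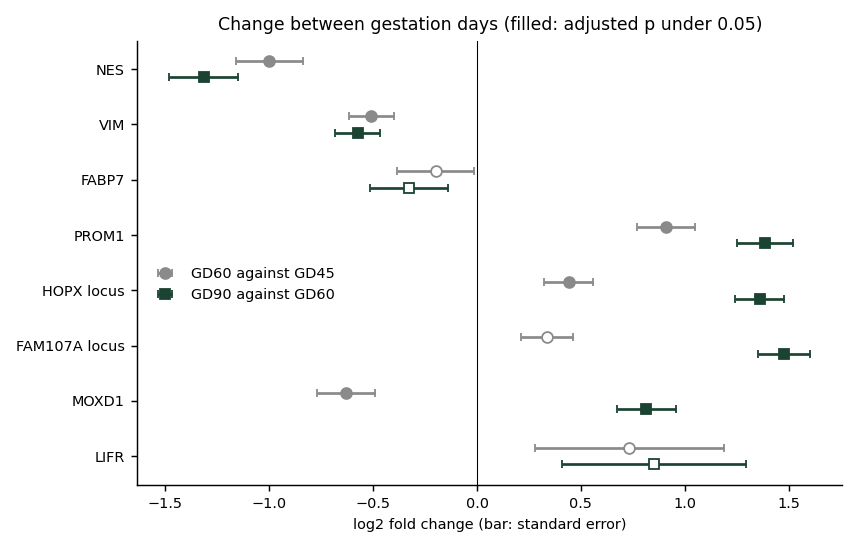
Log2 fold change (horizontal axis, with its standard error as bar) over both sexes for GD60 against GD45 (grey circles) and GD90 against GD60 (green squares), filled where the adjusted p is under 0.05. NES (-0.998 and -1.31) and VIM (-0.51 and -0.57) lie left of 0, PROM1 and both loci right of it, and MOXD1 changes side.

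Counted over the 6 members found by name, 4 were called for GD60 against GD45, 1 higher and 3 lower, where 9.35% of all tested genes were called higher and 7.37% lower. For GD90 against GD60, 4 were called, 2 higher and 2 lower, where the shares of all tested genes were 21.4% and 20.9%. For GD90 against GD45, 5 were called, 2 higher and 3 lower, where the shares were 28.3% and 29.3%. These comparisons share libraries and are not independent of each other. The median log2 fold change of the 6 was -0.35 for GD60 against GD45 and 0.24 for GD90 against GD60, where that of all tested genes was -0.01 in each.

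The change with day was then set apart by sex. For GD60 against GD45, 3 of the 6 members were called in females (NES, VIM and PROM1) and 2 in males (NES and MOXD1), where 7.22% and 5.61% of all tested genes were called. With single libraries left out, the call of MOXD1 in males was lost in 12 of 18 fits (edgeR adjusted p up to 0.192). In females NES was lost in 5 (up to 0.119) and VIM in 5 (up to 0.139). PROM1 in females and NES in males stayed called in all 18. For GD90 against GD60 the counts were 4 in females (NES, VIM, PROM1 and MOXD1) and 5 in males, the same 4 and LIFR, where 27.1% and 34.5% of all tested genes were called. The call of VIM in females for GD90 against GD60 (-0.45, adjusted p = 0.0396) was lost in 9 of the 18 fits that left out 1 library, with an adjusted p of up to 0.143 and a log2 fold change of -0.34 to -0.50. These were the fits without female replicates 12 and 13 of GD45, 3, 5 and 15 of GD60 or 7 and 9 of GD90, or without male GD60 replicate 6 or male GD90 replicate 8. NES had a log2 fold change of -1.33 in females and -1.30 in males at this step, and MOXD1 0.79 and 0.84. The interaction of sex and gestation day, which tests the difference itself, called no gene at either step, so 0% of tested genes in both. Without adjustment, 333 and 3232 genes lay under 0.05. Among the members these were LIFR (log2 difference 2.57, SE 0.892) and the HOPX locus (-0.66, SE 0.23), both for the step from GD60 to GD90 and both with an edgeR adjusted p of 0.205. Without male GD45 replicate 17 the edgeR adjusted p was 0.0345 for LIFR and 0.0481 for the HOPX locus, in a fit that called 2205 of 16631 tested genes.

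Between the sexes at one day no member passed the threshold in edgeR's test, where 0.0919% of all tested genes were called at GD45, 0.098% at GD60 and 0.098% at GD90. Under 0.05 without adjustment stood PROM1 at GD60 (males against females -0.41, edgeR adjusted p = 0.779), and the HOPX locus and LIFR at GD90. The HOPX locus had 114, 90.5 and 103 CPM in GD90 females and 80.8, 76.4 and 73.5 CPM in GD90 males, without overlap, for a log2 difference of -0.48 (SE 0.161, edgeR adjusted p = 0.35). LIFR in GD90 males lay above all GD90 females, with a log2 difference of 1.68 (SE 0.628, edgeR adjusted p = 0.35). With only the 6 GD90 libraries in the fit the edgeR adjusted p of LIFR was 0.0459 and that of the HOPX locus 0.046. That fit called 1062 of 15427 tested genes.

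LIFR varied from library to library along with the read coverage of another member, NES. For each library, the counts on the first exon of NES were set against 100 counts on its last exon. This measure ran from 1.01 in male GD45 replicate 17 to 11.8 in male GD90 replicate 10. LIFR had its lowest level of each day in the library, or 1 of the 2 libraries, where the measure was lowest. At GD45 the lowest values were 1.01 (LIFR 0.527 CPM) and 2.09 (2.24 CPM). At GD60 female replicate 15 had 2.52 (LIFR 2.18 CPM), against 9.85 and 10.2 in the other females (12.4 and 12.7 CPM). At GD90 female replicates 9 and 2 had 2.53 and 2.84 (LIFR 4.08 and 3.29 CPM), female replicate 7 had 9.56 (11.3 CPM), and the males had 10.4 to 11.8 (19.8 to 22.03 CPM). The GD90 sexes thus differed in this measure as they did in LIFR, and its part in the result was not tested. The libraries were made from mRNA selected with oligo(dT) beads, and LIFR, at 12352 bases, is longer than 98.1% of tested genes.

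**Figure D3:**
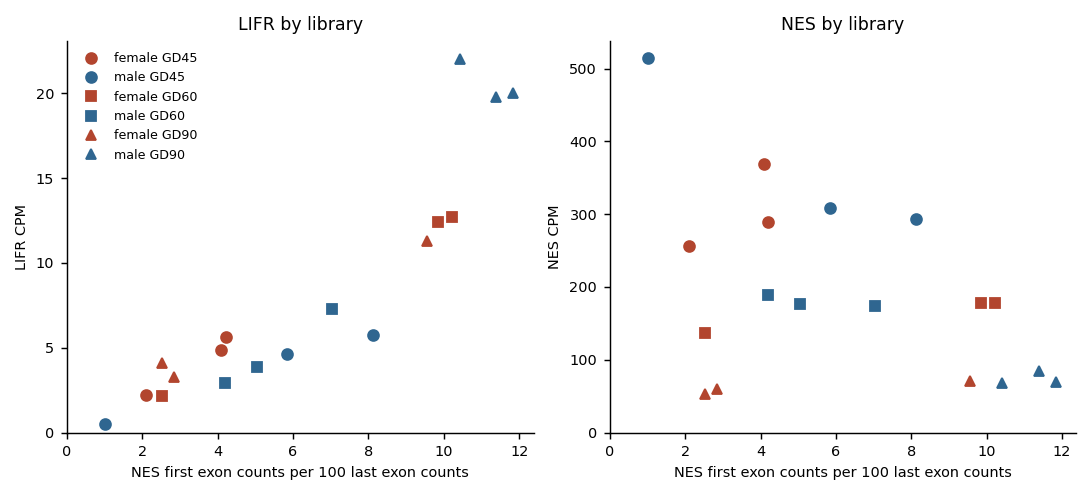
LIFR CPM (left) and NES CPM (right) of each library against the counts on the first exon of NES per 100 on its last. Red is female and blue male, with circles for GD45, squares for GD60 and triangles for GD90. LIFR climbs along the axis from 0.527 CPM at 1.01 to 19.8 to 22.03 CPM at 10.4 to 11.8, while NES is ordered by day.

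Other genes varied across the same libraries. DCX, a microtubule protein of young neurons, and SLC1A2, the astrocyte glutamate transporter, are named after their values were seen. DCX had 12.1 CPM in male GD45 replicate 17 and 23.99 CPM in female GD45 replicate 12, against 57.4 to 229 CPM in the other GD45 libraries. At GD90 it had 13.7 and 29.4 CPM in female replicates 2 and 9, against 99.7 to 179 CPM in the other 4. SLC1A2 had 12.3 and 23.6 CPM in those 2 females and 70.6 to 145 CPM in the others. FABP7 went the other way: at GD60 and GD90 its highest library was 1 of those with the lowest measure (982 and 750 CPM), as at GD45 (1376 CPM). FABP7 has 36.3% GC in its exons, less than all but 2.09% of tested genes. Over tested genes, the slope of centred log2 CPM per 10 points of GC was 0.219 in male GD45 replicate 17. It was -0.0992 in female GD60 replicate 15 and 0.0558 in female GD90 replicate 2. With GC trends removed, FABP7 had log2 fold changes of -0.18 for GD60 against GD45, -0.36 for GD90 against GD60 and -0.54 for GD90 against GD45. The part of GC in the FABP7 levels of single libraries was not tested.

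Leaving out the 5 libraries with under 3 first-exon counts per 100 last-exon counts, a choice made after the data were seen, the members that had been called over both sexes at consecutive days stayed called. NES had a log2 fold change of -0.78 for GD60 against GD45 (adjusted p = 3.6e-05) and -1.27 for GD90 against GD60 (adjusted p = 3.43e-07) in edgeR's test. PROM1 had 0.85 and 1.26, the HOPX locus 0.53 and 1.28, and MOXD1 -0.68 and 0.62. Nothing is read from LIFR, FABP7 or the sex difference of the HOPX locus in this setting, since the libraries left out hold the lowest LIFR library of each day, the highest FABP7 library of each day and the 2 highest GD90 libraries of the HOPX locus. The libraries left out also hold the highest NES and the lowest PROM1 and MOXD1 library of GD45. They hold the lowest NES and the highest PROM1 library of GD60, and the lowest NES and the highest MOXD1 library of GD90. The measure also uses counts of NES itself. This setting is therefore no independent check of the calls of these members.

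Genes that act with LIFR are given because its own level was so uneven. LIFR pairs with IL6ST (gp130) to signal through JAK kinases and STAT3, with SOCS3 as the feedback inhibitor. Of 11 such genes, 10 were in the table and 9 were tested. For GD90 against GD60 3 rose and 2 fell, where 21.4% of all tested genes were called higher and 20.9% lower. Their median log2 fold change was 0.04, where that of all tested genes was -0.01. IL6ST rose by 0.58 (adjusted p = 0.000919), JAK1 by 0.33 (adjusted p = 0.00523) and STAT3 by 0.26 (adjusted p = 0.00894) on the log2 scale. The ligand gene CTF1 fell by 1.13 (adjusted p = 0.000323) and SOCS3 fell by 0.96 (adjusted p = 0.000174). CLCF1 (0.18), CNTFR (-0.06), OSMR (0.04) and JAK2 (-0.06) did not pass, LIF was too low to be tested, and the name CNTF was not in the table. For GD60 against GD45 only JAK1 passed, with 0.31 (adjusted p = 0.017), where 9.35% of all tested genes were called higher.

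Other genes used as markers of radial glia were read from lists, and the part of other cell types in their changes was not tested. Of 7 further outer radial glia genes, 5 rose from GD60 to GD90 and none fell. At this step 21.4% of all tested genes were called higher and 20.9% lower. ACSBG1, an acyl-CoA synthetase, rose by 1.64 (adjusted p = 4e-10), the thyroid hormone transporter SLCO1C1 by 1.17 (adjusted p = 0.000162) and the receptor phosphatase PTPRZ1 by 0.73 (adjusted p = 0.0108). Of the libraries with low first-exon counts, PTPRZ1 had 88.3 CPM in male GD45 replicate 17 against 228 to 305 CPM in the other GD45 libraries, and 328 and 386 CPM in female GD90 replicates 2 and 9 against 430 to 591 CPM in the other GD90 libraries. At GD60 its lowest levels, 170 and 192 CPM, were in male replicates 16 and 6, which are not among those libraries. The part of coverage in its rise was not tested. TNC (0.32) and ITGB5 (0.25) did not pass. IL6ST is in this list too. The median of the 7 was 0.58, on the side of the HOPX and FAM107A loci. Of 14 general radial glia and neural stem cell genes found in the table, 6 fell and 2 rose at this step, and 9 fell and 1 rose for GD60 against GD45. In the latter comparison 9.35% of all tested genes were called higher and 7.37% lower. From GD60 to GD90 the log2 fold change was -1.84 for the Wnt inhibitor SFRP1 and -1.23 for the Hedgehog effector GLI3 (adjusted p = 5.38e-09 and 2.58e-07). SLC1A3, the glutamate transporter that radial glia share with astrocytes, rose by 1.06 (adjusted p = 1.1e-07).

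Markers of what radial glia give rise to, and of division, were read over the same days, and the lists changed in different directions. All 7 cell division genes in the table fell at both steps, and their summed level was 513 to 593 CPM at GD45, 215 to 289 CPM at GD60 and 123 to 154 CPM at GD90. The days did not overlap, as for NES. All 4 intermediate progenitor genes fell from GD60 to GD90, with log2 fold changes of -3.64 for EOMES and -4.09 for NEUROG2 (adjusted p = 2.78e-06 and 2.88e-07). Of 8 astrocyte markers 7 rose, among them GFAP by 2.53 and AQP4 by 2.36 (adjusted p = 4.65e-07 and 4.9e-06). The summed astrocyte level was 115 to 288 CPM at GD45, 342 to 474 CPM at GD60 and 1390 to 1860 CPM at GD90. The HOPX and FAM107A loci, also made by astrocytes, rose at the step where these markers rose, and the part of astrocytes in their rise was not tested. Of 6 ependymal and choroid plexus markers 2 fell, and of 8 pericyte and meninges markers 4 rose and 2 fell. Among all tested genes, 21.4% were called higher and 20.9% lower from GD60 to GD90, and 7.37% lower from GD45 to GD60.

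**Figure D4:**
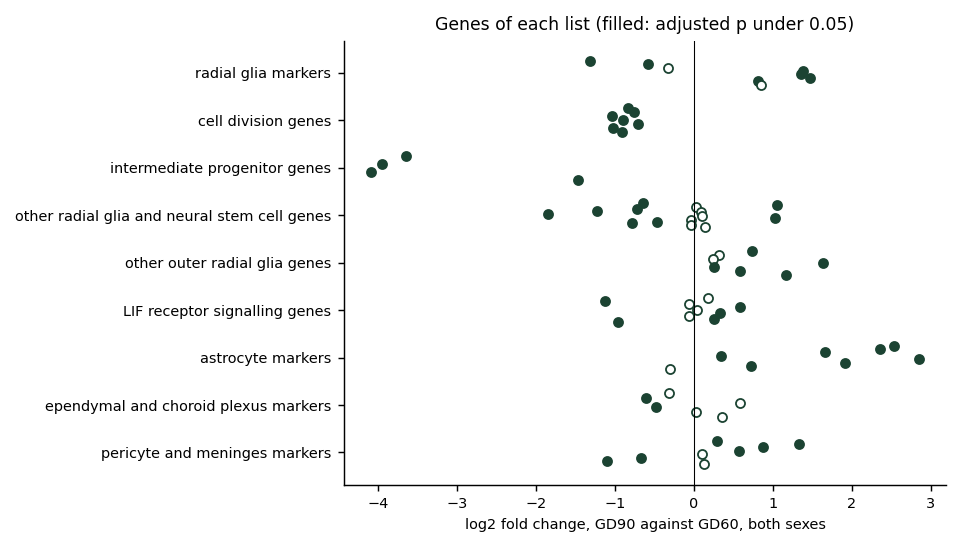
Log2 fold change for GD90 against GD60 over both sexes (horizontal axis) of each tested gene in 9 lists, 1 point per gene, filled where the adjusted p is under 0.05. The radial glia markers, here with the 2 loci, spread from -1.31 to 1.48, the 7 cell division genes all lie left of 0, and 7 of 8 astrocyte markers lie right of it and pass.

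The genes most like each member were found from centred log2 CPM over the 18 libraries, among 12809 genes with a symbol and a mean of at least 1 CPM, by the root mean square (RMS) difference. NES lay nearest to EFNB1 (RMS 0.201), POLD1 (0.204) and MCM3 (0.218), where its own SD over libraries was 0.998. POLD1 and MCM3 serve DNA replication. VIM lay nearest to HMGA1 (0.108), SRSF3 (0.112) and PPIL1 (0.122). FABP7 lay nearest to PSMA6 (0.082), CD3EAP (0.0833) and TUFM (0.088). PROM1 lay nearest to GPR75 (0.188), GPR26 (0.223) and ATP1B2 (0.223), the HOPX locus to LDHA (0.145) and DUSP26 (0.158), and the FAM107A locus to PIP5K1B (0.153), AKAP5 (0.183) and LYPD6 (0.183). MOXD1 had the poorest neighbours for its own SD of 0.416, LRRN1 (0.19), CRYZ (0.207) and GNG12 (0.208). LIFR lay nearest to PEG3 (0.275), ARHGAP32 (0.283) and PCDH7 (0.287), with an SD of its own of 1.27. No neighbour was a member found by name. The HOPX and FAM107A loci have no symbol, so neither could be picked as a neighbour.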

How the data were processed

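RNA-seq counts of 18 fetal pig brain libraries were used. Per the study's methods, the authors used Trimmomatic for trimming, HISAT2 for alignment to Sscrofa11.1 and FeatureCounts for counting on Ensembl genes, and deposited raw counts per gene and per exon. Options for strand and for reads with several matches are not given in the sources used here. The transcript table was not used. The tables hold 22 columns, since 4 libraries have 2 runs, which were summed. Totals were 15118843 to 19729783 counts per library (median 16413097). Intervals were not computed, and reads without molecular identifiers need not be separate molecules.

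The test was that of edgeR 4.0.16 (R 4.3.3): filterByExpr (16325 genes, 99.9% of counts), TMM, 1 quasi-likelihood fit of 6 groups over 18 libraries and Benjamini-Hochberg adjustment. Comparisons over both sexes average the female and male contrasts. P-values measure the spread between fetuses taken as independent, although all 18 fall into 9 pairs of inferred littermates. The main fit had no term for litter. CPM is the count over the library total without TMM, FPKM divides it by the deposited gene length, and log2 CPM used a prior count of 2. Promoter windows were read from the RefSeq genome of Sscrofa11.1. Alternatives were the likelihood ratio test, DESeq2 1.42.0, no TMM, a 1 CPM filter (3 libraries or more) and no filter. Length or GC trends were also removed. Others were only the libraries compared, litter as a block, single libraries left out, and libraries with low first-exon counts left out. For litter, limma 3.58.1 used a correlation within litters in the comparisons of days. For the sexes and the interactions, edgeR's quasi-likelihood fit took litter as a term. The GC and first-exon alternatives were chosen after seeing the data.

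On simulated counts for GD90 against GD60, with 200 of 16051 genes changed by a log2 fold change of 2, the test recovered 94% with 10 false calls. Recovery at smaller log2 fold changes, or with more genes changed, was not tested. At this step the members and loci had log2 fold changes of -1.31 to 1.48. Members and lists were chosen with earlier results of these data known. Named genes were all members, up to 3 genes per list with the largest called change for GD90 against GD60, all genes that act with LIFR, and 3 nearest genes per member. Some results that this rule names are not reported here. Other genes are said to be named after their values were seen, and further genes of a list are given to complete a count.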

Additional observations from a re-analysis of the deposited data

Results flagged for a closer look

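For the 6 members and 2 loci, each day's 6 libraries were checked for a library whose gap to its neighbour was large against the day's range (Dixon's test at 95%), 24 checks in all, of which chance alone would mark about 1 in 20. It marked 3. NES in female GD60 replicate 15 had 136 CPM, below the next library at 174 CPM. FABP7 in male GD45 replicate 17 had 1376 CPM, above the next at 856 CPM. MOXD1 in the same male library had 8.17 CPM, below the next at 12.9 CPM. Both libraries were among the 5 with few reads on the first exon of NES.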

How the results depend on the processing

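Over both sexes, 4, 4 and 5 of the 6 members were called (GD60 against GD45, GD90 against GD60 and GD90 against GD45), and these counts stayed within 4 to 6 under every alternative run. For GD60 against GD45 in females the 3 calls became 1 to 3 with single libraries left out. In males the 2 calls became 1 without TMM, 1 without a filter, 0 with only the libraries compared, 4 with DESeq2 and 1 to 2 with single libraries left out. In the first 4 of these settings 810 of 16325, 742 of 26480, 0 of 15283 and 1411 of 16325 tested genes were called. With only the libraries compared, 1 member was called between the sexes at GD90, where none had been. In that fit 1062 of 15427 tested genes were called. The interaction from GD60 to GD90 gave 0 to 1 with single libraries left out, 1 without male GD45 replicate 17 (LIFR). Without that library 2205 of 16631 tested genes were called. The HOPX locus, outside this count, passed there as well, and with only the libraries compared (edgeR adjusted p = 0.0414). The latter fit called 1145 of 16027 tested genes. Leaving out the 5 libraries of low first-exon counts keeps only replicate 7 of the GD90 females, so calls by sex are not read there. In that setting LIFR had a log2 difference of -1.35 for males against females at GD60 and 2.17 in that interaction. Its lowest library of each day is among those left out. In females VIM had -0.46 and MOXD1 0.41 for GD90 against GD60. VIM for GD90 against GD60 in females did not pass without a filter (0.0565). FABP7 reversed for GD60 against GD45 without male GD45 replicate 17 (0.0393, with -0.34 the lowest value when single libraries were left out), and MOXD1 for GD90 against GD45 without the 5 libraries (-0.0589), neither called. In males, the call of LIFR for GD90 against GD60 (2.14, adjusted p = 0.0169) was lost without male GD60 replicate 6 (0.0655) or 16 (0.0751). Without TMM the median of all genes moved to -0.11 for GD90 against GD60 in females and to 0.12 for the interaction from GD60 to GD90. The causes were not tested.

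Litter as a replicate block changed 1 count, GD60 against GD45 in males, from 2 members to 1 (MOXD1 -0.72, adjusted p = 0.056), and no other call of a member. Deviations of the inferred littermates correlated at -0.09 to 0.42. Pairs from different litters were not compared, so these values do not show whether the pairs were littermates. Over all genes, GD60 against GD45 called 1178 in females (531 to 2509 over the alternatives) and 916 in males (0 to 2026). The sexes differed in 15, 16 and 16 genes (up to 687 at GD60 without the 5 libraries and 1062 at GD90 with only those libraries), and the interactions in 0 (up to 417 without the 5 libraries, and 2205 from GD60 to GD90 without male GD45 replicate 17).

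LIFR had as few as 8 counts in a library, and exon detail was out of reach for the HOPX locus and LIFR.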

Other observations

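Markers of further cell types changed as well from GD60 to GD90, where 21.4% of all tested genes were called higher and 20.9% lower. All 5 oligodendrocyte precursor markers rose, with SOX10 at 1.69 and PDGFRA at 1.17. All 5 microglia markers rose, CX3CR1 by 1.16 and CSF1R by 1.00. Of 7 neuron markers 4 rose, among them SYN1 by 1.37, and the young neuron tubulin TUBB3 fell by 0.38. Of 7 endothelium markers 3 rose and none fell, with FLT1 at 0.87. Of 5 red blood cell markers 2 fell, with SLC4A1 at -1.40 and ALAS2 at -0.45.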
